A study of Mus musculus with 36 samples.

Results

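The mitochondrial ribosomal protein genes are the nuclear genes whose mouse symbol is Mrpl or Mrps followed by a number and, in some, a letter. The rule found 78 genes among the 21968 Ensembl genes of the deposited count table, 49 with an Mrpl symbol (large subunit) and 29 with an Mrps symbol (small subunit). Their transcripts were measured in 36 single oocytes at the germinal vesicle stage, before the oocyte resumes meiosis. The labels place 18 oocytes of 4 mice (a to d) under Drp1_KO and 18 oocytes of 5 mice (1 to 5) under Drp1_WT, and the mouse is the replicate throughout. Drp1, encoded by Dnm1l, is the GTPase that divides mitochondria, and the comparison of the labels asks what its loss changes in the oocyte. The labels do not give strain, age, the deleted part of Dnm1l or what drives the deletion. Tube numbers in the titles run from 27 to 30 for the 8 oocytes of mouse d and mouse 5 and from 1 to 15 for the 28 oocytes of the other 7 mice. What the tube numbers stand for is not given either.

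Mitochondrial ribosomes translate the few proteins that the mitochondrial genome encodes, all of them membrane subunits of the respiratory chain and of ATP synthase. Every protein of the particle is made in the cytosol from a nuclear gene and imported, while its RNA comes from the mitochondrial genome. The small subunit decodes the mRNA, and the large subunit joins the amino acids and holds the exit tunnel, which faces the inner membrane. Oocytes hold many mitochondria, which the embryo inherits. Of the 78 genes, 46 encode proteins with a counterpart in the bacterial ribosome and 31 encode proteins particular to mitochondria. Symbol and structure differ for 3 members. Mrps30 and Mrps18a lie in the large subunit of solved structures, and Mrps36 is not a ribosomal protein in them but part of the 2-oxoglutarate dehydrogenase complex. By structure, the set thus holds 51 large and 26 small subunit genes. Below, the subunit follows the symbol unless stated.

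Some libraries stand apart and touch the results. Totals ran from 3178509 to 7406895 counts per oocyte. Transcripts of oocyte genes such as Zp3, Gdf9 and Bmp15 were present in every library, and the 14 oocyte markers summed to between 17900 and 32890 CPM (counts scaled to library size) in 35 libraries. In tube 10 of mouse b, labelled Drp1_KO, they summed to 6542 CPM, and 11350 genes were detected against at least 13200 elsewhere. There 8 immune markers summed to 607.5 CPM against at most 8.84 CPM elsewhere. Lyz2 (440 CPM) made up most of that sum, followed by Cd68 (67.85 CPM), Tyrobp (57.83 CPM) and Adgre1 (34.54 CPM). Csf1r, Itgam, Ptprc and Cd74 reached at most 4.50 CPM in any library. Dnm1l ranged from 144 to 274 CPM over the oocytes labelled Drp1_KO. Among those labelled Drp1_WT it ranged from 234 to 322 CPM in 13 oocytes but from 116 to 156 CPM in the 5 oocytes of tubes 11 to 15 (all of mouse 4 and part of mouse 3), which goes against their label. In tube 29 of mouse 5 (Drp1_WT), Mfhas1 stood at 20.8 CPM, within the 19.4 to 39.0 CPM of the Drp1_KO label and above the 1.08 to 5.47 CPM of the other 17 Drp1_WT oocytes. Those 17 include the 5 oocytes of tubes 11 to 15, so their Mfhas1 went with their label. Tube 29 in turn is among the 13 Drp1_WT oocytes with Dnm1l of 234 to 322 CPM. Directions are drawn from the labels as given, and results are also given without these 7 libraries.

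Promoters of the members were searched for motifs that many nuclear genes for mitochondrial proteins are known to carry. RefSeq start sites on GRCm38.p6 were found for 69 of the 78 genes, each with 250 bases before and 50 bases after the start. The motif of nuclear respiratory factor 1 (NRF1), searched with 1 base free, occurred on either strand in 13 of the 69 (18.8%) against 4.78% of 27025 promoters of all genes. The ETS motif of GABP (CCGGAAG) occurred in 25 (36.2%) against 9.12%, and the YY1 motif (which can share an AAG with the ETS motif) in 5 (7.25%) against 0.899%. The TATA box (TATAAA) went the other way, with 4 (5.80%) against 14.2%. The SP1 motif (GGGCGGGG) stood at 23.2% against 17.8% and the CCAAT box (CCAATC) at 18.8% against 16.6%. Below are 120 bases before and 20 bases after the start for 9 members whose values follow, read 5′ to 3′ along the gene, with matches to the first 3 motifs in capitals.
Mrpl30 (chr1:37890357-37890496, plus strand, higher in tubes 27 to 30): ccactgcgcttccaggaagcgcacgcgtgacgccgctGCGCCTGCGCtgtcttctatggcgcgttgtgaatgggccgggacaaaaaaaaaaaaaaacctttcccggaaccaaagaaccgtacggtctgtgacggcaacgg
Mrps21 (chr3:95871495-95871634, minus strand, higher in tubes 27 to 30): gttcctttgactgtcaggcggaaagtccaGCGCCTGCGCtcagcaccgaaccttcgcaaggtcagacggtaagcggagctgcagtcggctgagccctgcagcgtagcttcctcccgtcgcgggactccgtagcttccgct
Mrpl22 (chr11:58171544-58171683, plus strand, higher in tubes 27 to 30): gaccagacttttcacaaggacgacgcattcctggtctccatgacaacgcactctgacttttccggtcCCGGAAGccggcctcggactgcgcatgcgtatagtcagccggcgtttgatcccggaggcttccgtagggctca
Mrpl35 (chr6:71823765-71823904, minus strand, higher in tubes 27 to 30): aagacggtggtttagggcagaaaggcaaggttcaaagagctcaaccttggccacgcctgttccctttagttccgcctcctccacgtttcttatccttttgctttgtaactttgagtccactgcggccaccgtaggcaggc
Mrps17 (chr5:129715377-129715516, plus strand, higher in tubes 27 to 30): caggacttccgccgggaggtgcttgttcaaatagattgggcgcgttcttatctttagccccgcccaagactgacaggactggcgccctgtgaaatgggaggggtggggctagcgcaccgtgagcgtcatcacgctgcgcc
Mrpl58 (chr11:115403632-115403771, plus strand, not called): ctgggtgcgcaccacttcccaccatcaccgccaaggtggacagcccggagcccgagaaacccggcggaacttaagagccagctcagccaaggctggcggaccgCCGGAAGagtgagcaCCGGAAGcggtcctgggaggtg
Mrps18a (chr17:46110884-46111023, plus strand, not called): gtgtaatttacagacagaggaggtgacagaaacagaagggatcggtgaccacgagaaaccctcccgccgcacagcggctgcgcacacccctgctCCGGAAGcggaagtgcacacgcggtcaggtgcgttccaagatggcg
Mrpl12 (chr11:120484517-120484656, plus strand, not called): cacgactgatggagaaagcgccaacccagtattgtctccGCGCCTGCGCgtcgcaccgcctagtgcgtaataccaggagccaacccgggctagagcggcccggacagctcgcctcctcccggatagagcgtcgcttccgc
Mrps5 (chr2:127587306-127587445, plus strand, not called): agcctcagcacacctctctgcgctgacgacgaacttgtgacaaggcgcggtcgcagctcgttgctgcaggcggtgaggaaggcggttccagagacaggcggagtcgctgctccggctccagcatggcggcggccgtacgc
Over the full 300 bases, an NRF1, ETS or YY1 match lay in 11 of the 21 promoters of members called higher in tubes 27 to 30. It lay in 21 of the 39 promoters of members with a positive difference that were not called, and in 4 of the 8 with a negative one. The windows shown for Mrpl35, Mrps17 and Mrps5 hold none of these letters. Mrpl35 and Mrps18a have a YY1 match, and Mrps21 an ETS match, elsewhere in the 300 bases. A match is a description of the sequence and shows no binding.

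The 78 genes took 0.666% to 1.05% of all counts in 35 of the oocytes, with 76 or 77 of them represented in each. The large subunit genes summed to 4204 to 6451 CPM and the small subunit genes to 2447 to 4046 CPM. Tube 10 of mouse b was far below both ranges, with 1590 and 1147 CPM, and the members' share there was 0.274% (95% Wilson interval 0.269% to 0.278%). The sums of the large and small subunit genes varied together over the 36 oocytes (Spearman's rho 0.97, values that share each library's total). Their ratio lay between 1.55 and 1.77 outside tube 10, where it was 1.39.

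**Figure D1:**
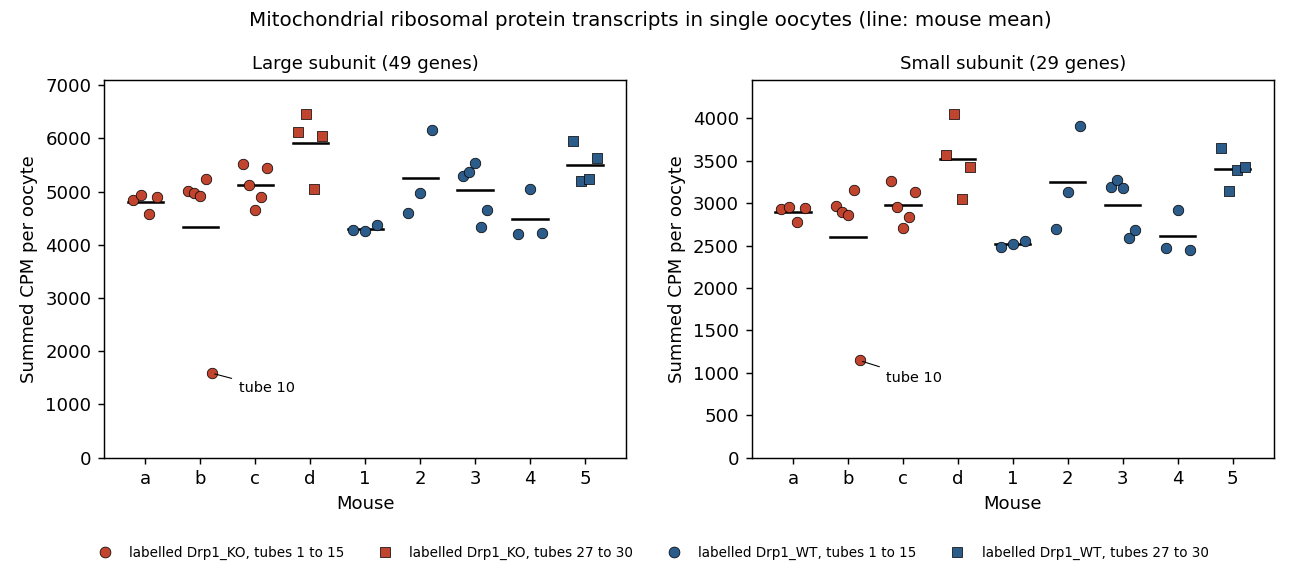
Summed CPM of the 49 large subunit genes (left) and 29 small subunit genes (right) in each of 36 oocytes by mouse, with the mouse mean as a line, the label as colour and the tube set as shape. Tube 10 of mouse b lies at 1590 and 1147 CPM, below every other oocyte, and mouse d has the highest mean in both panels.

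Large subunit sums of the mice labelled Drp1_KO were 4813, 4344, 5122 and 5917 CPM for mice a to d, as means over their oocytes. Those labelled Drp1_WT stood at 4300, 5246, 5038, 4489 and 5503 CPM for mice 1 to 5. The labels overlapped, with mouse d highest and mouse 1 lowest. The means were 5049 ± 661 CPM (SD, n = 4) and 4915 ± 508 CPM (SD, n = 5), a difference smaller than the spread within either label. Without tube 10 of mouse b the Drp1_KO mean became 5221 ± 482 CPM. For the small subunit the Drp1_KO mice averaged 3000 ± 383 CPM (SD, n = 4) and the Drp1_WT mice 2952 ± 385 CPM (SD, n = 5), again within the spread. The ratio of large to small was 1.68 ± 0.0367 (SD, n = 4) against 1.67 ± 0.0474 (SD, n = 5), and the difference was smaller than the spread between mice.

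The tube sets lay further apart than the labels. The large subunit sum was 5710 ± 293 CPM (SD, n = 2) over mice d and 5 and 4765 ± 389 CPM (SD, n = 7) over the other mice, and the small subunit sum 3461 ± 84.8 CPM (SD, n = 2) against 2834 ± 265 CPM (SD, n = 7). Both mice of tubes 27 to 30 were above all 7 others for both sums. Single oocytes overlapped, at 5040 to 6451 CPM for the large subunit in the 8 oocytes of tubes 27 to 30 and 4204 to 6162 CPM in the 27 others without tube 10. In the 5 Drp1_WT oocytes of tubes 11 to 15 the large subunit sum had a median of 4334 CPM, below the 4979 CPM of the 9 Drp1_WT oocytes of tubes 1 to 10. Those 5 oocytes, of mice 3 and 4, ranged from 4204 to 5047 CPM and also have the lowest Dnm1l among the Drp1_WT oocytes. The oocytes of mouse 1 (tubes 1 to 3) were low as well, at 4251 to 4373 CPM, with Dnm1l of at least 234.5 CPM. The part of Dnm1l and of these sums in each other was not tested.

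The labels Drp1_KO and Drp1_WT were compared gene by gene on counts summed per mouse, with edgeR's quasi-likelihood test adjusted over 12812 genes. Of the 78 members 77 could be tested, and 0 passed an adjusted p of 0.05 in either direction, where 0.0156% of all genes passed, all of them higher. DESeq2 and limma-voom on single oocytes also called 0 members. At an unadjusted edgeR p under 0.05, 3 members were higher and 0 lower (background 4.89% higher and 4.81% lower). The median log2 difference, Drp1_KO minus Drp1_WT, was 0.12 over the members (0.12 large, 0.11 small) and -0.00 over all genes. It was positive for 62 of the 77 members, against 49.4% of all genes. Members move together within a library, so this count is a description of these mice.

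That small positive median rested on few mice. It became 0.01 without mouse d, -0.00 without the Drp1_WT oocytes of tubes 11 to 15, and 0.03 without all 7 libraries that stand apart. With library size as the only scaling it was 0.03, with 43 of 77 members positive (share of all genes with that scaling not given). Within tubes 1 to 15 the median difference was 0.07, with 55 of 77 members positive against 6395 of all 12812 genes. Between the single mice of tubes 27 to 30 it was 0.12, with 57 of 77 positive against 6583 of 12812. Drp1_KO lay above Drp1_WT in both tube sets for 47 members (61%, background 32.3%) and below in both for 12 (15.6%, background 31.0%).

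Mrpl15, a large subunit protein with a bacterial counterpart (chromosome 1, 4773206 to 4785739), had the smallest p of the set. It stood at 59.8, 63.1, 63.7 and 65.7 CPM in mice a to d and at 39.9, 44.7, 53.3, 45.9 and 57.9 CPM in mice 1 to 5. Every mouse labelled Drp1_KO was above every mouse labelled Drp1_WT, the lone member of which this held (background 1.28%), and 0 members had every Drp1_KO mouse below (background 1.29%). The log2 difference was 0.38 (SE 0.12), with an unadjusted edgeR p of 0.00759 and an adjusted p of 0.497. In single oocytes the labels overlapped, from 49.2 to 87.7 CPM over the 17 Drp1_KO oocytes without tube 10 and from 35.9 to 69.5 CPM over the 18 Drp1_WT oocytes. The 5 oocytes of tubes 11 to 15 had a median of 62.9 CPM, close to the Drp1_KO median of 63.3 CPM.

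Mrps10, a protein of the head of the small subunit, stood at 15.8, 13.2, 13 and 14.3 CPM in mice a to d and at 6.86, 9.53, 10.5, 9.69 and 13.5 CPM in mice 1 to 5. Mouse 5 overlapped with the Drp1_KO mice and the other Drp1_WT mice were lower (log2 0.49, SE 0.18, edgeR adjusted p 0.499). Mrps23, a small subunit protein particular to mitochondria, stood at 109, 135, 102 and 112 CPM against 96.3, 98.8, 97.6, 88.3 and 103 CPM. Here mouse 5 lay just above mouse c, and mouse b, which holds tube 10 with 227 CPM, was highest (log2 0.24, SE 0.11, edgeR adjusted p 0.508). The members next by p were Mrpl48, Mrpl1 and Mrpl40 of the large subunit and Mrps15 and Mrps14 of the small, with log2 differences of 0.20 to 0.34 and edgeR adjusted p of 0.557 to 0.587 apart from Mrpl48 at 0.535.

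The tube sets were compared in the same way, with the label as a term in the model. Of the 77 members, 22 were higher in tubes 27 to 30 at an adjusted p of 0.05 by edgeR and 0 were lower, where 3.58% of all genes were called higher and 1.4% lower (4.99% in all). They comprised 14 of 48 large and 8 of 29 small subunit genes. At an unadjusted p under 0.05 the counts were 46 higher and 0 lower (background 13.6% and 12.4%). The median log2 difference was 0.38 (1.30-fold) over the members, 0.38 for the large and 0.37 for the small subunit, against -0.04 over all genes, and it was positive for 65 of the 77 (background 46.2%). Members with a bacterial counterpart and those particular to mitochondria had nearly equal medians, 0.38 and 0.37.

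**Figure D2:**
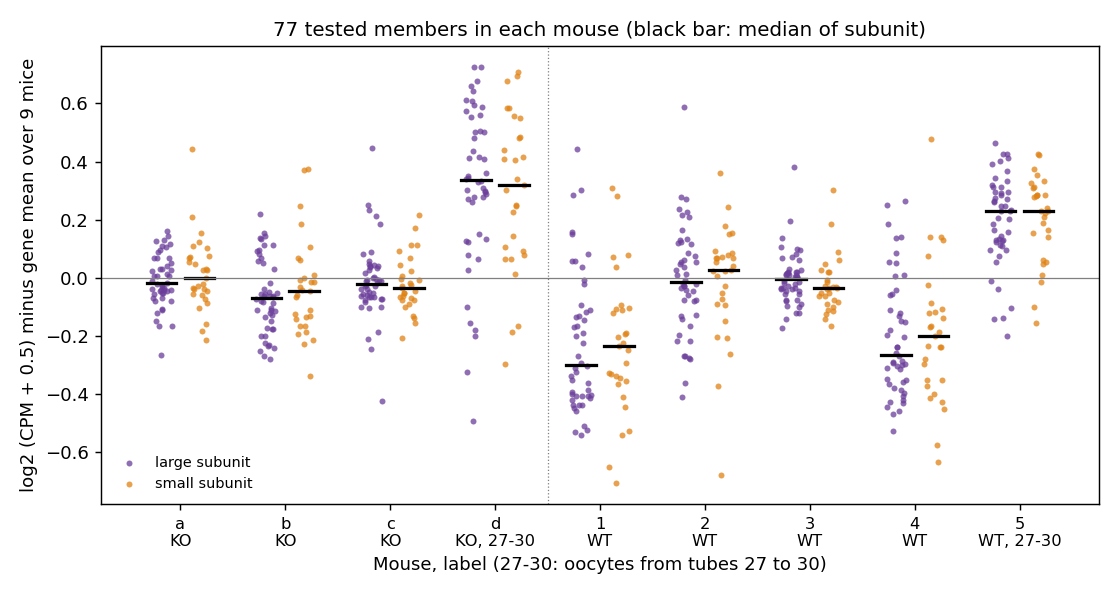
Each point is 1 of the 77 tested members in 1 mouse, as log2 (CPM + 0.5) minus the gene's mean over the 9 mice, with the median of each subunit as a bar. Mouse d (median 0.33) and mouse 5 (0.23) lie highest, mouse 1 (-0.27) and mouse 4 (-0.24) lowest.

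Mouse d and mouse 5 carry different labels, so the difference can be read within each label from mice that are not shared. Mouse d minus the mean of mice a to c had a median log2 of 0.38 over the members, and mouse 5 minus the mean of mice 1 to 4 had a median of 0.35, where all genes gave -0.02 and -0.01. Both differences were positive for 62 of the 77 members (80.5%, background 34.5%) and both were negative for 6 (7.79%, background 37.4%). The 6 were Mrpl4, Mrpl10 and Mrpl44 of the large subunit and Mrps2, Mrps5 and Mrps30, named after their values were seen. Across the 77 members the 2 differences had a Spearman's rho of 0.718, against 0.541 across all tested genes. Each mouse here is 1 animal, so a difference between tube sets and a difference between these animals cannot be told apart.

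**Figure D3:**
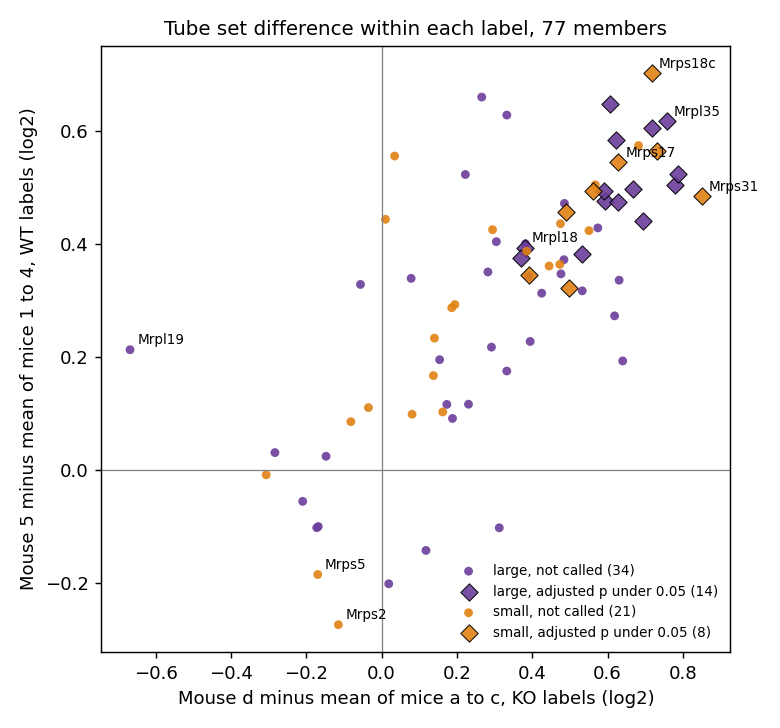
Each point is 1 of the 77 members, placed by the log2 difference of mouse d from the mean of mice a to c (horizontal) and of mouse 5 from the mean of mice 1 to 4 (vertical). The 22 members called higher in tubes 27 to 30 (diamonds) lie at the upper right, while Mrps2 and Mrps5 lie below 0 on both axes.

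Among large subunit genes, Mrpl35 (chromosome 6, 71812997 to 71826969) had the smallest p. It stood at 656 CPM in mouse d and 511 CPM in mouse 5, against 276 to 411 CPM with a median of 387 CPM in the other 7 mice. The mice did not overlap, and the Drp1_WT mice 1 and 4 were lowest. The log2 difference was 0.68 (SE 0.13, edgeR adjusted p 0.0307). Of the 8 oocytes of tubes 27 to 30, 5 exceeded every one of the 27 other oocytes outside tube 10, 4 of mouse d and 1 of mouse 5. Mrpl47, a protein at the tunnel exit, stood at 222 and 166 CPM in mice d and 5 against 101 to 137 CPM (median 128 CPM), a log2 difference of 0.65 (SE 0.13, edgeR adjusted p 0.0307). Parts of Mrpl47 (24.2% of its exon bases) overlap Ndufb5 and Actl6a, and reads from there cannot be told apart.

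Mrpl42, particular to mitochondria, stood at 144 and 126 CPM in mice d and 5 against 68.6 to 102 CPM (median 89.1 CPM). Mrpl1, which forms the mobile stalk beside the exit site for tRNA, stood at 202 and 148 CPM against 98.2 to 136 CPM (median 117 CPM). Mrpl30 stood at 136 and 112 CPM against 68.9 to 94.2 CPM (median 88.0 CPM). In all 3 genes mouse d was highest, mouse 5 next, and mice 1 and 4 lowest. Their log2 differences were 0.65, 0.56 and 0.55, with edgeR adjusted p of 0.0311, 0.0311 and 0.0333. Mrpl18 and Mrpl22 were also called, at log2 0.39 and 0.63, and in Mrpl18 every oocyte of tubes 27 to 30 (317.6 to 394.5 CPM) was above the median of the 27 others (306 CPM).

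Among small subunit genes, 8 of 29 were called and 4 had a negative difference. Mrps17, whose bacterial counterpart binds the ribosomal RNA, stood at 297 CPM in mouse d and 262 CPM in mouse 5 against 156 to 213 CPM (median 195 CPM) in the other 7 mice. Its log2 difference was 0.58 (SE 0.12, edgeR adjusted p 0.0307). Mrps31, particular to mitochondria, stood at 327 and 261 CPM against 161 to 227 CPM (median 177 CPM), a log2 difference of 0.66 (SE 0.14, edgeR adjusted p 0.0307). Mrps21 stood at 154 and 138 CPM against 77 to 121.5 CPM (median 92.2 CPM). None of these 3 genes overlapped between the tube sets by mouse, although single oocytes did, and Mrps21 was highest in an oocyte of tubes 1 to 15 at 204 CPM.

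The 3 paralogs Mrps18a, Mrps18b and Mrps18c, which share a bacterial ancestor but occupy different places on the particle, all had positive differences, and 2 of them were called. Mrps18b was at 112 and 105 CPM in mice d and 5 against 70.5 to 83.3 CPM, a log2 difference of 0.47 (SE 0.10, edgeR adjusted p 0.0311). Mrps18c, the copy that takes the bacterial place, had a log2 difference of 0.69 (SE 0.17, edgeR adjusted p 0.0363), the largest among the members. Mrps18a, which sits in the large subunit, did not pass, with a log2 difference of 0.41 (SE 0.12, edgeR adjusted p 0.0652). Exon bases shared with other genes made up 30.5% of Mrps18b (Gm16279, antisense) and 23.2% of Mrps18c, and 0% of Mrps18a.

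The difference was negative for 12 members, 8 large and 4 small subunit genes, and none of them was called. The most negative was Mrpl19 at log2 -0.27 (SE 0.38, edgeR adjusted p 0.694), a gene of few counts, at 1.08 and 1.99 CPM in mice d and 5 against 1.16 to 2.54 CPM in the others. Next were Mrps2 and Mrps5, core proteins of the small subunit with bacterial counterparts. Mrps2, named after its values were seen, stood at 44.5 and 44.8 CPM in mice d and 5 against 45.5 to 61.9 CPM (median 52.3 CPM). Mrps5 stood at 15.5 and 16.5 CPM against 17.4 to 19.6 CPM (median 18.0 CPM). Mice d and 5 were below all 7 others for these 2 members alone (2.60%, background 10.9%) and above all 7 for 48 members (62.3%, background 11.7%). Neither passed the test, with log2 differences of -0.20 (SE 0.12, edgeR adjusted p 0.328) and -0.18 (SE 0.13, edgeR adjusted p 0.399). Mrps30, placed in the large subunit by structure, was at log2 -0.16 (SE 0.16, edgeR adjusted p 0.563).

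Other members with special roles varied as follows. Mrpl12, the stalk protein that recruits translation factors, was level over the mice at 111 to 134 CPM, and its log2 difference of 0.17 (SE 0.10) had an edgeR adjusted p of 0.300. Mrpl58, a peptidyl-tRNA hydrolase built into the large subunit that can free stalled chains, was at 176 and 155 CPM in mice d and 5 and 103 to 136 CPM in the others, with an edgeR adjusted p of 0.0554. Mrps36, of the 2-oxoglutarate dehydrogenase complex, was called with log2 0.52 (SE 0.13, edgeR adjusted p 0.0420), so leaving it out gives 21 ribosomal members called.

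The number of calls varied with the mice and the scaling used. With mouse a, d, 4 or 5 left out in turn, or the Drp1_WT oocytes of tubes 11 to 15, edgeR called 0 members, and 0 to 5 genes of the whole table were called higher. The share of all genes at an unadjusted p under 0.05 in these fits is not given. The members' counts at that threshold, given below only as ranges, are thus not compared with other genes. Where mouse d or mouse 5 is left out, tubes 27 to 30 hold 1 mouse, which is assumed to vary like the other groups. Without mouse 2, 41 members were called (background 9.04%), without mouse c 7 (background 1.52%) and without mouse b 10 (background 2.28%). With library size as the only scaling, 4 members were called (background 0.976%). With each of the 9 mice left out in turn, the members' median stayed between 0.34 and 0.42. Without all 7 libraries that stand apart it was 0.31, with 65 of 76 positive and 0 called. With all libraries 46.2% of all genes were positive, and that share without the 7 is not given.

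Other measures also differed between the tube sets. In tubes 27 to 30 there were 13320 to 14080 genes detected (median 13540) against 13200 to 14660 (median 13990) in the other 27 oocytes without tube 10. The 15 granulosa markers summed to 91.2 to 129 CPM against 78.8 to 155 CPM. Most of the granulosa sum was Cyp19a1 and Nr5a2 (medians of 61.52 and 32.55 CPM over all oocytes), while Foxl2, Amh and Amhr2 had a median of 0. The sum of 11 stroma, endothelial and epithelial markers was lower, at 26.9 to 42.5 CPM (median 33.5) against 26.7 to 74.3 CPM (median 48.8). Most of it was Pecam1, while Cdh5 was at 0 in every oocyte. The part of these measures in the shift was not tested. Over all tested genes the tube set difference fell with exon length (Spearman's rho -0.20), and the members are short, with a median exon length of 2533 bases against 4351. Within the members that relation was weaker (rho -0.10), and the part of length in the shift was not tested.

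Levels of single members, compared per kilobase of exon, spanned a wide range. Among large subunit genes the highest were Mrpl34 (271 ± 46.9 CPM per kb, SD, n = 9 mice), Mrpl18 (225 ± 30.9), Mrpl14 (175 ± 34) and Mrpl22 (156 ± 41.0). Each overlapped within its SD with the next in this order. The SDs are over the same 9 mice for every gene, so their overlap does not decide the order within a mouse. Among small subunit genes they were Mrps21 (143 ± 36 CPM per kb), Mrps18c (100.4 ± 29.8), Mrps28 (95.2 ± 18.7) and Mrps22 (89.2 ± 13.4), and here too each overlapped within its SD with the next. The medians were 30.6 CPM per kb for 48 large and 33.1 CPM per kb for 29 small subunit genes, close to each other.

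**Figure D4:**
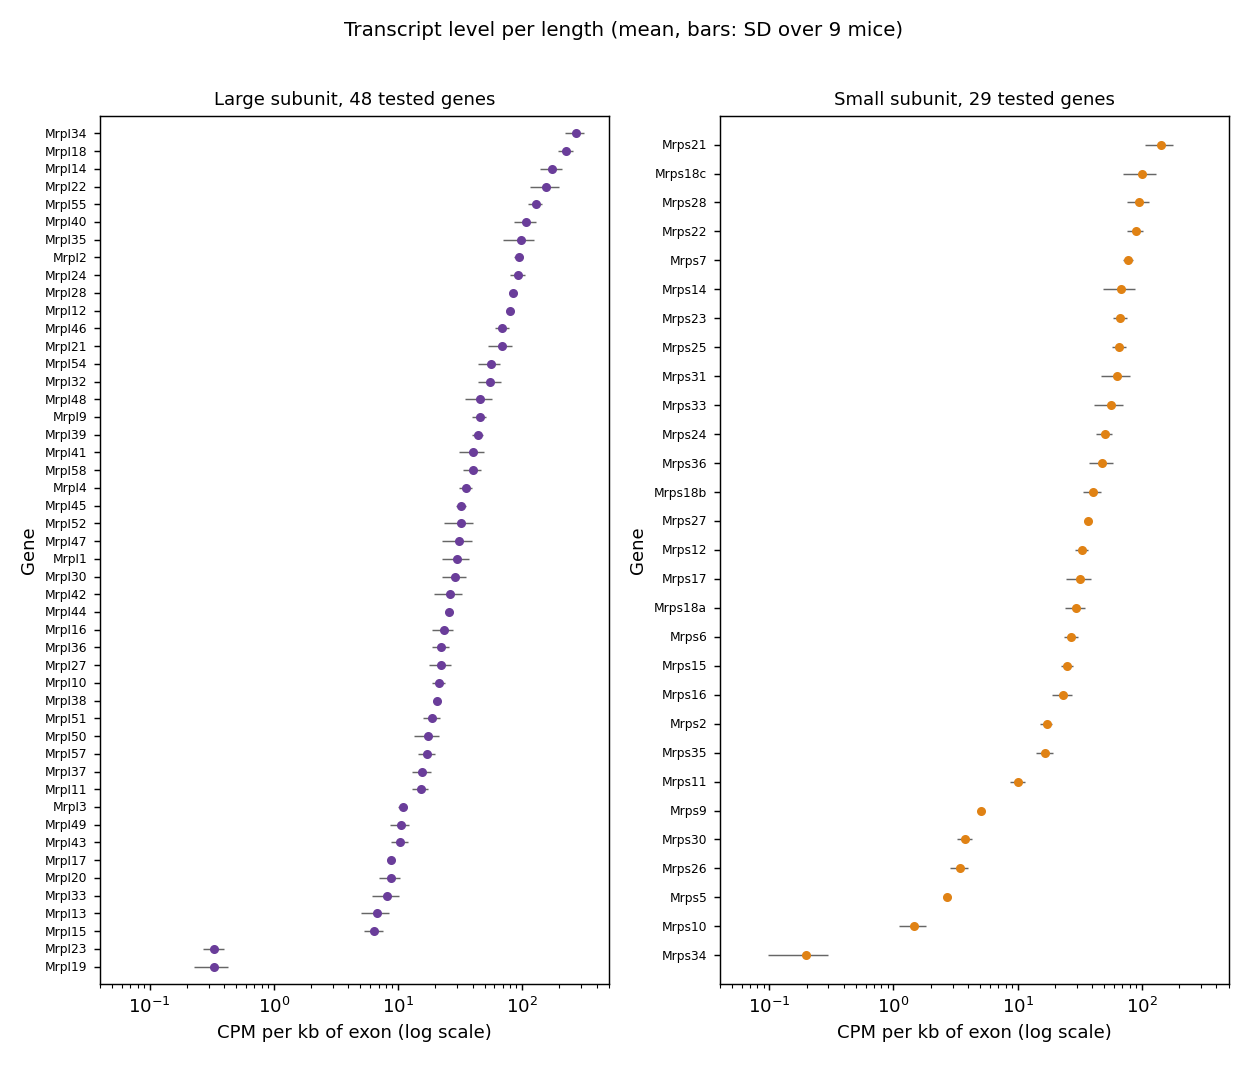
Mean level in CPM per kb of exon (log axis) of the 48 large and 29 small tested members, in order, with bars of 1 SD over 9 mice. The medians are 30.6 and 33.1, Mrpl34 has the highest mean at 271 (SD 46.9), and Mrpl19 (0.328), Mrpl23 (0.332) and Mrps34 (0.198) lie far below the rest.

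At the low end stood Mrpl19 (0.328 ± 0.10 CPM per kb), Mrpl23 (0.332 ± 0.0647) and Mrps34 (0.198 ± 0.10); all 3 encode structural proteins of the ribosome. Next above them were Mrpl15 of the large subunit (6.47 ± 1.11) and Mrps10 (1.46 ± 0.352) and Mrps5 (2.70 ± 0.189) of the small. Mrpl15 came to 28.99 CPM per kb when the median transcript length replaced the union of exons. Mrpl53 had 0 counts in all 36 oocytes, which allows at most 0.405 to 0.944 CPM per oocyte (3 counts of its total). Shared sequence was high for several of these genes. Other genes overlap 88.0% of the exon bases of Mrpl53, 77.8% of Mrps34 and 36% of Mrpl19. Mrpl23 has a pseudogene copy, Mrpl23-ps1, but its shared part is small. Other genes overlap 0% of its exon bases, and 8.97% of its runs of 100 bases occur in other genes. Reads in shared sequence may not have been counted, so these levels are uncertain and an order against other members cannot be drawn. The same holds for Mrps25 of the small subunit, with 69.8% of its exon bases overlapped by Nr2c2.

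Oocytes of a mouse resembled each other in these genes. Among the 74 members of at least 10 CPM, the coefficient of variation between oocytes of a mouse had a median of 18.2%, or 14.1% without tube 10 of mouse b. All 7337 genes of that level had 20.8% and 18.2%. The smallest values belonged to Mrpl45, which anchors the ribosome to the inner membrane (9.45%, and 7.23% without tube 10), Mrpl10 of the stalk base (10.3%) and Mrpl18 (11.1%). The largest belonged to Mrpl20 (31.3%), Mrps26 (29.2%) and Mrps31 (27.6%), all with tube 10 included. Both Mrpl20 and Mrps26 are members of low count, at mouse means of 11 to 19.4 CPM and 11.4 to 19.4 CPM. Mrps31 had 22 counts in tube 10 of mouse b, against a median of 1224.5 counts per oocyte.

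Tube 10 of mouse b differed from all other oocytes in most members. It was below every one of the other 35 libraries for 64 of the 77 members (83.1%, background 42.2%) and above every one for 2 (2.60%, background 14.4%). Against the mean of the other 4 oocytes of mouse b, the median ratio was 0.208 over the members, 0.175 for the large and 0.249 for the small subunit, against 0.419 over all genes. Mrps22 was at 3.07 CPM against 348 CPM in its sister oocytes and Mrpl22 at 1.84 against 143 CPM. The 2 members above all other libraries were Mrps14, at 478 CPM against 200.1 CPM, and Mrps23, at 227 against 110 CPM. Mrpl3 and Mrpl13 of the large subunit stood at 86.2 and 63.6 CPM, against 70.7 and 49.95 CPM in the sister oocytes. This library also held the fewest oocyte transcripts and the immune markers given above, and their part in these values was not tested.

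**Figure D5:**
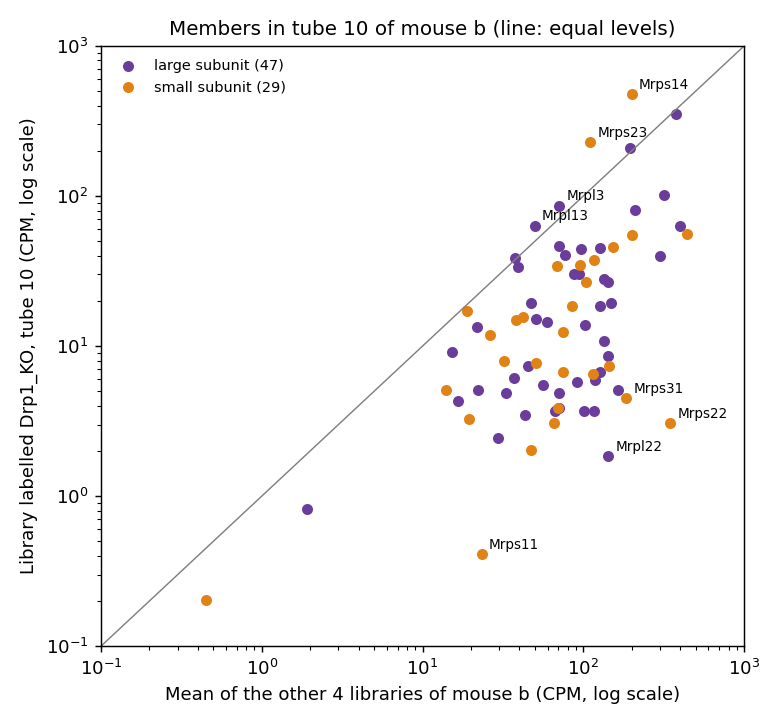
Each point is 1 of 76 members, with CPM in tube 10 of mouse b (vertical) against the mean of the other 4 oocytes of mouse b (horizontal), both on log axes, and a line of equal levels. Most points lie below the line (median ratio 0.208), Mrps14 and Mrps23 lie above it, and Mrpl19, at 0 counts in tube 10, is not drawn.

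Genes that work with the mitochondrial ribosome had lower medians in the comparison of tubes 27 to 30 with tubes 1 to 15. The 5 structural proteins without an Mrp symbol came closest to the members, with a median log2 difference of 0.20. Where 3.58% of all genes were called higher by edgeR, 1 of these 5 was called. That was Chchd1, a small subunit protein, at 92.5 and 70.7 CPM in mice d and 5 against 41.2 to 61.2 CPM in the others (log2 0.60, SE 0.14, edgeR adjusted p 0.0355). Dap3, a GTP-binding small subunit protein, was at log2 0.24 (edgeR adjusted p 0.131). At an unadjusted edgeR p under 0.05, 2 of 24 tested assembly and rRNA modification genes were higher and 5 lower (background 13.6% and 12.4%). Of these 24 genes, 0 were called by edgeR, with a median of -0.16. The smallest p among them were those of Rbfa, an assembly factor of the small subunit (log2 -0.64, edgeR adjusted p 0.0705), and of Tfb1m, which methylates its RNA (log2 0.36, edgeR adjusted p 0.0820).

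At an unadjusted edgeR p under 0.05, 3 of 17 tested translation factors and activators were higher and 1 lower (background 13.6% and 12.4%). Of these 17 genes, 1 was called higher and 0 lower by edgeR (background 3.58% and 1.4%), with a median of -0.03. It was Mrrf, the factor that recycles ribosomes, at 118 and 109 CPM in mice d and 5 against 69.1 to 96.8 CPM (log2 0.51, SE 0.12, edgeR adjusted p 0.0357). Mtrf1, a release factor homolog, had a log2 difference of 0.54 (edgeR adjusted p 0.0516). At an unadjusted edgeR p under 0.05, 1 of 19 tested mitochondrial aminoacyl-tRNA synthetases and amidotransferase subunits was higher and 6 lower (background 13.6% and 12.4%). Of these 19 genes, 0 were called by edgeR, with a median of -0.30. Cars2 (log2 -0.75, edgeR adjusted p 0.0529) and Pars2 (log2 -1.0, edgeR adjusted p 0.0651) had the smallest p. These lists were not tested against the members.

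Between the labels, 0 of the 5, 24, 17 and 19 tested genes of the 4 lists passed by edgeR. At an unadjusted edgeR p under 0.05 there were 1 higher and 4 lower (background 4.89% higher and 4.81% lower). Lrpprc, which stabilises mitochondrial mRNA, stood at 36.6, 39.5, 36.9 and 35.6 CPM in mice a to d and at 52.1, 44.3, 45.3, 47.8 and 48.1 CPM in mice 1 to 5. All mice labelled Drp1_KO were below all labelled Drp1_WT (log2 -0.36, SE 0.10, edgeR adjusted p 0.471). Tufm, the mitochondrial elongation factor that brings tRNA to the ribosome, was at 6.63, 6.18, 5.95 and 4.28 CPM in mice a to d and at 7.97, 8.35, 6.87, 8.59 and 8.13 CPM in mice 1 to 5. Here too the labels did not overlap (log2 -0.47, SE 0.17, edgeR adjusted p 0.499). Mettl15 of the assembly list, named after its values were seen, went the other way. It stood at 42.44, 38.15, 38.87 and 38.95 CPM in mice a to d and at 34.03, 35.75, 34.38, 37.18 and 29.93 CPM in mice 1 to 5. Over all genes, every Drp1_KO mouse was below every Drp1_WT mouse for 1.29% and above for 1.28%. Among the assembly genes, Ngrn (log2 0.35) and Rcc1l (log2 -0.90) had the smallest p, both with an edgeR adjusted p of 0.499. In the list of structural proteins, Ptcd3 and Chchd1 had log2 differences of 0.21 and 0.29, with edgeR adjusted p of 0.552 and 0.592.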

How the data were processed

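Single-oocyte RNA-seq libraries were made with the SMARTer Ultra Low Input and Nextera XT kits and sequenced single-end, per the labels' protocols; these kits keep no strand. The authors deposited whole-number counts per gene and oocyte. STAR, Picard and featureCounts of Subread 1.5.2 with build GRCm38 are named per the submitters' processing notes. No source used here gives the annotation release or the treatment of multi-mapping reads. Of the 21968 gene IDs, 21876 were matched to GENCODE M21, and 0 columns belonged to other samples.

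Counts were summed per mouse (4 labelled Drp1_KO, 5 labelled Drp1_WT) and fitted with edgeR 4.0.16 (R 4.3.3), with TMM scaling, filterByExpr, the robust quasi-likelihood test and Benjamini-Hochberg adjustment over 12812 genes. The tube sets were compared with the label as a term. The fits were tested on simulated data. p-values measure the spread between mice as labelled. Per-oocyte CPM divide by the library total, while the CPM of single members per mouse divide by the summed total times its TMM factor, and the subunit sums per mouse are means over its oocytes. Intervals and floors (3 counts) cover counting error only, since reads carry no molecular identifiers. Alternatives were DESeq2 1.42.0, limma-voom (limma 3.58.1), other scalings and filters, and leaving out mice or libraries. The members and lists were chosen with earlier results of these data known. Genes were named by smallest p in each comparison and subunit, by highest and lowest level, by spread between oocytes, for failing the filter, or for a place that differs from their symbol. The values of 1 gene that this rule names are not reported here.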

Additional observations from a re-analysis of the deposited data

Results flagged for a closer look

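For each member the mice of a label were screened for 1 mouse far from the rest, using Dixon's 95% critical value for the gap, which chance passes in about 1 group in 20. Of 78 genes screened in both labels, 15 values were marked. The share marked over all genes is not given, and members move together within a library. The counts of marked members thus describe these mice and set the members apart from no other genes. Among the mice labelled Drp1_KO, mouse d stood apart in 13 members. It was high for Mrpl14 (231.6 CPM), Mrpl20 (18.1 CPM), Mrpl30 (135.8 CPM), Mrpl35 (656.1 CPM), Mrpl42 (143.6 CPM), Mrpl47 (221.5 CPM) and Mrpl58 (176.4 CPM) of the large subunit. Among small subunit genes it was high for Mrps17 (296.7 CPM), Mrps18b (112.0 CPM), Mrps18c (170.2 CPM), Mrps21 (154.0 CPM) and Mrps28 (102.5 CPM), and low for Mrps5 (15.54 CPM). Among the mice labelled Drp1_WT, mouse 5 was high for Mrpl18 (373.9 CPM) and Mrpl20 (19.38 CPM). Both mice are those of tubes 27 to 30.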

How the results depend on the processing

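Between the labels, 0 members were called in either direction under any of the 22 alternatives. The count higher at an unadjusted p under 0.05 (3) became 5 with the tube set as a term and 1 without the Drp1_WT oocytes of tubes 11 to 15, and ranged from 2 to 10 with each mouse left out in turn. The median log2 difference ranged from 0.01 to 0.19 with each mouse left out. Between the tube sets, the count called higher (22) became 36 with DESeq2 (7.34% of all genes, against 3.58% with edgeR), 4 with library size alone (0.976% of all genes), 0 without the Drp1_WT oocytes of tubes 11 to 15, 0 without all 7 libraries that stand apart, and 0 to 41 with each mouse left out. The unadjusted count higher ranged from 29 to 51 with each mouse left out, and the unadjusted count lower became 2 with library size alone. For these alternatives the share of all genes at an unadjusted p under 0.05 is not given in either comparison. Their unadjusted counts thus describe these mice and set the members apart from no other genes. Library size alone moved the median of all genes from -0.04 to -0.16 and that of the members to 0.26. With each mouse left out the members' median ranged from 0.34 to 0.42. For the 9 called members with the smallest p (Mrpl1, Mrpl30, Mrpl35, Mrpl42, Mrpl47, Mrps17, Mrps18b, Mrps21 and Mrps31), the largest adjusted p over 20 alternatives was 0.334 to 0.355. The other called genes were not followed singly. With each mouse left out, the large subunit sum differed by -0.04 to 0.11 (log2, Drp1_KO minus Drp1_WT) and by 0.21 to 0.32 (tubes 27 to 30 minus 1 to 15), and the small subunit sum by -0.05 to 0.09 and 0.27 to 0.33. The log2 ratio of large to small ranged from -0.00 to 0.02 and from -0.06 to -0.00. It became -0.041 (labels) and -0.064 (tube sets) with reads per kilobase, and -0.043 and -0.15 with the median of members' log2 values. The cause was not tested. Levels per kilobase by median transcript length were added after seeing the data. No paired analysis was possible because the mice of one label carry letters and those of the other carry numbers, so no number is shared. Mrpl53, Mrps34, Mrpl23 and Mrpl19 have the fewest counts (medians of 0, 1, 9 and 9.5 per oocyte), so their values are imprecise at this depth. The part of depth and of shared sequence in those low counts was not tested.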
